A study of Mus musculus with 12 samples.

Results

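Liver RNA of 3 wild-type mice with a ligated bile duct was compared with that of 3 sham-operated wild-type mice, 1 one-colour microarray per mouse. These 6 arrays were chosen by their titles from the 12 arrays of the series, whose other arrays came from littermates lacking FSAP, the plasma protease that activates coagulation factor VII. All 6 mice were FSAP+/+ offspring of heterozygous parents from a knockout line crossed onto BALB/c only up to generation F3, and their ages lay between 20 and 30 weeks. In the ligated group (BDL) the common bile duct was tied under isoflurane, and the sham group had the same surgery without the ligature. Livers were frozen 2 weeks later. Only RNA with an integrity number of at least 7.2 was used, and 100 ng of it was labelled with Cy3. The sex of the mice is not given in the labels, and the short backcross leaves a mixed genetic background in both groups.

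Bile duct ligation blocks the flow of bile into the gut, so that bile acids, bilirubin and copper are retained in the liver. In this model the bile ducts branch and multiply, inflammatory cells and scar-forming cells gather around them, and hepatocytes lose part of their specialised gene expression. The fibrosis, inflammation and bile acid genes of this model are widely described. The gene groups below are mostly others: mitochondria and peroxisomes, liver zonation, hormone handling, iron, copper and redox metabolism, epithelial and cytoskeletal genes, growth signals and lipid mediators.

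A gene's level is the log2 signal of its brightest probe minus the 75th percentile of the array, so a level of 0 is the level of that percentile. Values by array are given in the order of replicates 1, 2 and 3. Changes are BDL minus sham on the log2 scale with the standard error (SE) of a limma model on the 6 arrays, and a gene "rose" or "fell" where its adjusted p (Benjamini-Hochberg over all genes tested) was under 0.05. Where no array of the dimmer group was well above background, the change is only bounded and is given as "at least N-fold". Such a bound compares the mean of the brighter group with a floor for the dimmer one, taken per array as the lowest signal well above background or the signal of that probe, whichever is higher. Unless stated, named rises and falls kept their call under each alternative processing in which they were tested, and without any 1 array. Probe positions are on mm9.

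The 6 arrays had 54.5% to 62.3% of their spots well above background, a 75th percentile of signal between 475 and 1202, and no saturated spot (0 on each array). All 3 sham arrays and BDL replicate 1 lay on 1 slide, and BDL replicates 2 and 3 lay on a second slide. Sham arrays correlated with each other at 0.990 to 0.994 over the genes tested, BDL arrays at 0.980 to 0.985, and arrays of different groups at 0.923 to 0.938. With 3 mice per group, the number of arrays limits the precision. The label "liver" fitted the hepatocyte markers: all 10 were well above background on all 6 arrays, and 3 of them (Ttr, Asgr1 and Fabp1) fell, 5 without BDL replicate 1. The log2 of their summed signal was 11.31 to 11.52 on the sham arrays and 11.49, 10.93 and 10.66 on the BDL arrays. BDL replicate 1, on the sham slide, thus lay within the sham range, and the arrays of the second slide lay below it. In whole liver, fewer cells of a type and less RNA per cell cannot be told apart.

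Ligation changed 6934 of 18257 genes (38% of genes tested). Of these, 3113 rose (17.1%) and 3821 fell (20.9%). The groups did not overlap in 9664 genes (52.9%). Rises were more often large: 624 genes rose at least 4-fold against 467 that fell as much, and 263 against 154 passed 8-fold. The median change of all genes was -0.05. The split of the calls depended on the scaling. With each array set to its median in place of the 75th percentile, the median change moved to -0.21 and rises made up 32.2% of the calls in place of 44.9%, so changes here are relative to the 75th percentile. The SD within the group was larger in BDL than in sham for 68.1% of genes, with a median SD of 0.23 against 0.15. All sham arrays shared a slide, while the BDL arrays were spread over that slide and a second one. Slide and differences between mice therefore cannot be told apart in the larger BDL spread. The 75th percentile of signal was 475, 835 and 1202 on the BDL arrays and 558 to 632 on the sham arrays. The part of these differences in signal in the spread was not tested.

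**Figure D1:**
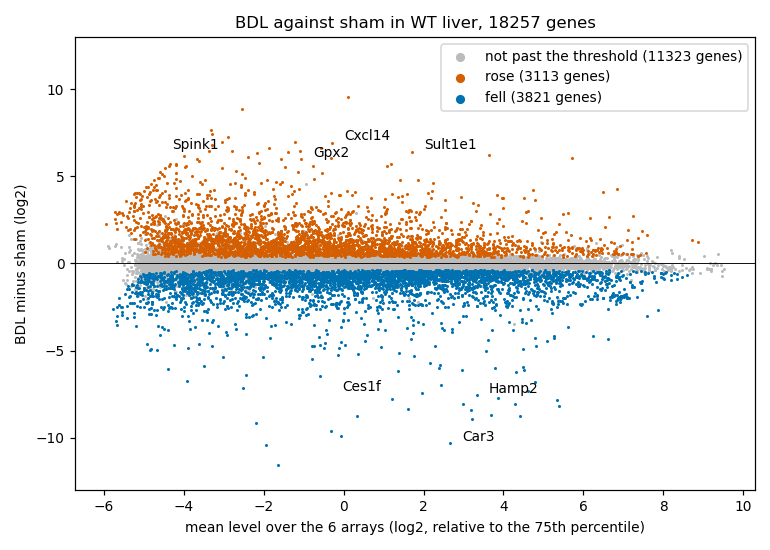
Change after ligation (BDL minus sham, log2) of each of the 18257 genes tested against its mean level over the 6 arrays (log2, relative to the 75th percentile). Orange points rose (3113), blue points fell (3821) and grey points did not pass the threshold; labelled genes are described in the text.

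The largest rises among genes measurable on all 6 arrays were in secreted proteins, stress genes and 1 muscle gene. The chemokine Cxcl14 (13:56390078-56390137) stood at -3.28, -3.75 and -4.25 in sham livers and at 3.63, 3.91 and 1.99 after BDL. It rose by 6.93 (SE 0.52, limma, adjusted p = 0.000258). Myom3 (4:135371377-135371436), which encodes a protein of the muscle M-band, stood at -4.02, -4.44 and -3.23 in sham livers and at 2.83, 2.87 and 2.58 after BDL, a rise of 6.66 (SE 0.30, limma, adjusted p = 6.6e-05). No array overlapped the other group for either gene. Other striated muscle genes did not accompany it: of 12 listed, 4 were bright enough to test, and among those Tnni2 alone rose (2 without BDL replicate 1), by 0.98, a call lost with slide as a block and with the normexp background. Spink1 (a trypsin inhibitor, 6.44), Sult1e1 (estrogen sulfotransferase, 6.43), Timp1 (an inhibitor of matrix metalloproteinases, 6.39), Igfbp1 (a binding protein of insulin-like growth factors, 6.26), Lcn2 (the iron-siderophore carrier lipocalin 2, 6.07), Serpinb6b (6.06), Gpx2 (glutathione peroxidase 2, 5.99) and Cd14 (a co-receptor for bacterial lipopolysaccharide, 5.70) completed the 10 largest.

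The largest falls were in products of adult hepatocytes. Car3 (3:14871781-14871840), carbonic anhydrase 3, stood at 7.75, 7.85 and 7.91 in sham livers and at -1.32, -3.28 and -2.88 after BDL. It fell by 10.33 (SE 0.48, limma, adjusted p = 6.87e-05). Another 6 of the 10 were major urinary proteins, the pheromone carriers that liver secretes into blood. All 9 numbered Mup genes tested fell, Mup2 by 8.76. They are near-identical copies, so the values of single members are uncertain. The other 3 were the P450 gene Cyp2b13, which fell by 8.74, Hamp2, a second hepcidin gene, which fell by 7.58, and the carboxylesterase Ces1f, which fell by 7.46.

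Some genes were measurable in 1 group only: 283 were well above background on all 3 BDL arrays and no sham array, and 94 the other way round. The tissue inhibitor Timp4 was at least 118-fold higher after BDL and the matrix metalloproteinase Mmp7 at least 85.7-fold. The fatty acid elongase Elovl7 was at least 59.4-fold higher, Tceal5 at least 51.9-fold, the imprinted RNA H19 at least 49.6-fold and Lrtm2 at least 45.0-fold. The epithelial transcription factor Elf3 (42.7-fold) and Gipc2 (42.4-fold) followed, both as lower bounds. In the other direction A1bg, a plasma glycoprotein, stood at 5.05, 3.10 and 4.27 in sham livers and was at least 622-fold lower after BDL. Hao2, a peroxisomal hydroxyacid oxidase, was at least 186-fold lower. The organic anion carrier Slco1a1 (24.0-fold), the pseudogene Mup-ps15 (24.2-fold), the anion exchanger Slc26a4 (14.2-fold), Sun3 (9.47-fold), the steroid enzyme Hsd3b5 (6.92-fold) and Nat8f3 (6.88-fold) followed, all as lower bounds of a fall.

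Mitochondrial genes fell together and by similar amounts. Of 64 tested nuclear-encoded subunits of respiratory complexes I, III, IV and V and cytochrome c, 58 fell and 0 rose, with a median change of -0.69 against -0.05 for all genes. By complex, 31 of 35 subunits of complex I fell, 8 of 8 of complex III, 11 of 11 of complex IV and 8 of 9 of complex V, the ATP synthase. Median changes were -0.68, -0.74, -0.73 and -0.54 in that order. The groups did not overlap for 63 of the 64 genes, against 52.9% of all genes. The 6 that did not pass were Ndufa2, Ndufa8, Ndufb6, Ndufc2, Atp5d and Cycs, the gene of cytochrome c itself, at -0.05. With each BDL array set against the sham mean, the list's median was -0.81 on replicate 1, which shared the sham slide, -0.72 on replicate 2 and -0.63 on replicate 3. With slide as a block, 48 fell and 0 rose. With quantile normalization 33 fell, and with the series matrix values 32, both with a median of -0.45.

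The largest fall among these subunits was that of Ndufb10 (17:24859019-24859078), part of the membrane arm of complex I. It stood at 5.91, 5.99 and 6.13 in sham livers and at 4.61, 4.96 and 4.97 after BDL, a fall of 1.16 (SE 0.15, limma, adjusted p = 0.0016). Ndufb9 and Ndufa5, also of complex I, fell by 1.16 and 1.15. Cox4i1, the core regulatory subunit of complex IV, fell by 0.49, a call that was lost under 5 alternatives (slide as a block, the replicate block, quantile normalization, the series matrix values and no filter on dim probes) and without sham replicate 2, sham replicate 3 or BDL replicate 2. All BDL arrays lay below all sham arrays for each of these 4 genes.

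Pyruvate dehydrogenase and the tricarboxylic acid cycle followed the same direction: 18 of 24 genes fell and 0 rose, with a median of -0.74 and -0.90 on the array that shared the sham slide. Pdp2, a phosphatase that activates pyruvate dehydrogenase, fell by 1.88 (SE 0.18, limma, adjusted p = 0.000569). Sdhb, the iron-sulfur subunit of succinate dehydrogenase, fell by 1.30 and Dlat, a core subunit of pyruvate dehydrogenase, by 1.28. Idh3a stood highest, at 0.46, without passing the threshold.

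Of 37 tested peroxisomal genes outside fatty acid oxidation, 29 fell and 1 rose, and the median was -0.96. The groups were without overlap for all 37, against 52.9% of all genes. Catalase, Cat (2:103294487-103294546), which breaks down hydrogen peroxide, stood at 4.41, 4.59 and 4.71 in sham livers and at 2.44, 2.54 and 2.33 after BDL, a fall of 2.13 (SE 0.13, limma, adjusted p = 0.000143). Apart from Hao2, the largest falls were in Abcd2, an importer of very long chain fatty acids, by 3.05, and the coenzyme A hydrolase Nudt7, by 2.50. Abcd2 missed the threshold with all 12 arrays in the model. Peroxins, the assembly proteins of the organelle, were among the falls, with Pex11a at -1.48. Nudt19 rose by 0.66, a call lost with median scaling, with no filter on dim probes and without sham replicate 1 or 2; rises were then 0, and 2 without BDL replicate 2. The medians were -0.96, -0.95 and -1.01 on BDL replicates 1, 2 and 3. Of the hepatocyte markers 3 of 10 fell, with a median of -0.18 that turned to 0.10 with slide as a block and to 0.07 with quantile normalization or the series matrix values. Rises among them, 0 here, were 2, 3 and 3 under these settings, and the part of hepatocyte number in these falls was not tested.

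**Figure D2:**
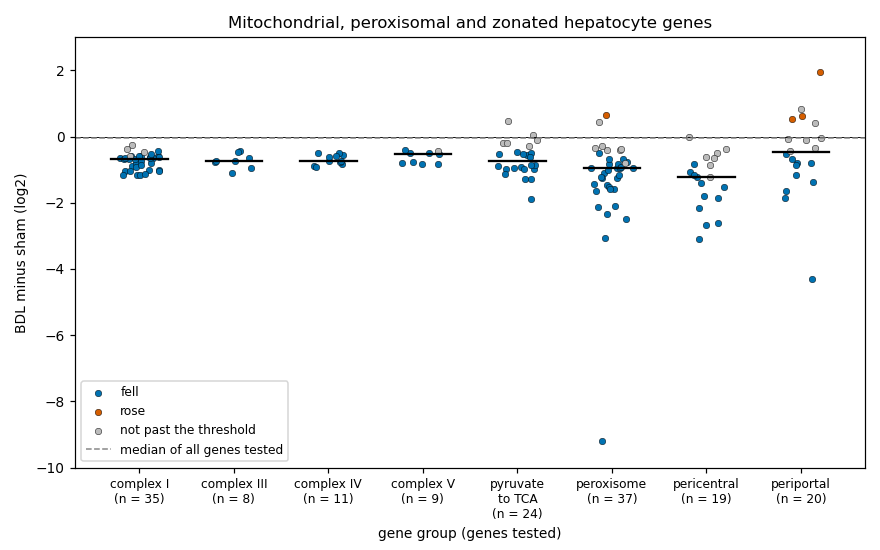
Change after ligation (BDL minus sham, log2) of each tested gene in 8 groups: subunits of respiratory complexes I, III, IV and V, pyruvate dehydrogenase with the tricarboxylic acid cycle (TCA), peroxisome, pericentral and periportal hepatocyte genes. Blue points fell, orange points rose, grey points did not pass; black bars are group medians, between -1.21 (pericentral) and -0.48 (periportal), and the dashed line is the median of all genes (-0.05).

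Hepatocytes near the central vein and near the portal vein express different genes, and Wnt signals from central vein endothelium maintain the pericentral set. Of 19 pericentral genes other than P450s, 12 fell and 0 rose, with a median of -1.21 and -1.16 on the array that shared the sham slide. Glul (1:155756765-155756824), glutamine synthetase, stood at 5.11, 4.98 and 5.20 in sham livers and at 3.93, 3.19 and 2.74 after BDL, a fall of 1.81 (SE 0.29, limma, adjusted p = 0.00394). The glutamate transporter Slc1a2 fell by 3.09, the Wnt-induced transcription factor Sp5 by 2.68, the calcium-binding lactonase Rgn by 2.62 and the ornithine aminotransferase Oat by 1.39. Other Wnt targets, named after their values were seen, fell too: Rnf43 by 1.53, Axin2 by 1.23 and Lgr5 by 1.07.

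Of 20 periportal genes, 10 fell and 3 rose, with a median of -0.48 (5 rises without BDL replicate 2). Cyp2f2, a periportal P450, fell by 4.30 (SE 0.15, limma, adjusted p = 2.4e-05), from 7.40, 7.42 and 7.39 to 2.90, 3.37 and 3.04. Etnppl, which degrades phosphoethanolamine, fell by 1.86 and the histidine lyase Hal by 1.65. The serine dehydratase-like gene Sdsl rose by 1.95, and the arginase Arg1 rose by 0.61, a call lost with slide as a block. Pck1, of gluconeogenesis, rose by 0.53. That call was lost under 4 alternatives (replicate block, 12 arrays, median scaling, no filter) and without sham replicate 1 or 2 or BDL replicate 1 or 3. Whether the 2 zones differed in response was not tested.

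Genes that handle steroid and thyroid hormones fell: 24 of 34 fell and 3 rose, with a median of -0.96 and -0.90 on the shared slide. Serpina6 (12:104884880-104884939), the corticosteroid-binding globulin of plasma, stood at 7.27, 7.65 and 7.50 in sham livers and at 0.67, 2.09 and 1.74 after BDL, a fall of 5.98 (SE 0.36, limma, adjusted p = 0.00013). Thrsp, a thyroid hormone-responsive gene of lipogenesis, fell by 4.90. Hsd11b1, which regenerates active glucocorticoid, fell by 2.30 and the growth hormone receptor Ghr by 2.06. The 3 rises were Sult1e1, Serpina7, the thyroxine-binding globulin, by 1.38, and Fkbp5, a co-chaperone of the glucocorticoid receptor, by 1.40. Sult1e1 (5:88005187-88005246) varied within sham livers, at -1.55, -3.24 and 0.26, and stood at 4.55, 5.87 and 4.34 after BDL, without overlap.

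Carboxylesterases, aldehyde dehydrogenases, flavin monooxygenases and paraoxonases showed a like picture, with 27 of 39 down, 4 up and a median of -0.99. Pon1, the paraoxonase of high-density lipoprotein, fell by 3.85 and Ces1e, a carboxylesterase, by 3.79. The flavin monooxygenase Fmo5 rose by 1.49 and the aldehyde dehydrogenase Aldh3b1 by 1.75. The count of rises was 2 with the replicate block, with median scaling, with no filter on dim probes and without sham replicate 2.

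Of 33 vitamin A genes tested, 12 fell and 5 rose, with a median of -0.32. The falls were led by retinol saturase, Retsat, by 3.40, the retinyl ester lipase Pnpla3, by 2.69, and the retinol-oxidising alcohol dehydrogenase Adh1, by 2.22. Dhrs9, a retinol dehydrogenase, was at least 3.68-fold higher. Cyp26a1, which degrades retinoic acid, rose by 1.64, a call lost without sham replicate 1 or 3 or BDL replicate 3. The count of rises was 3 with all 12 arrays in the model and without sham replicate 1, sham replicate 3, BDL replicate 2 or BDL replicate 3.

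Tryptophan breakdown and NAD synthesis held 10 falls and 4 rises among 24 genes (median -0.40, and -0.62 on the shared slide). Haao, which makes quinolinate on the way from tryptophan to NAD, fell by 1.86 (SE 0.21, limma, adjusted p = 0.00107). Acmsd (1:129664080-129664139), which diverts the same intermediate away from NAD, went the other way. It stood at -1.25, -1.49 and -1.12 in sham livers and at 0.73, 1.30 and 0.62 after BDL, a rise of 2.17 (SE 0.21, limma, adjusted p = 0.000599). The count of rises was 1 with slide as a block and without sham replicate 1 or 2, and 2 with no filter on dim probes.

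Hepcidin, the peptide hormone by which hepatocytes restrain iron release, has a pair of genes in the mouse, Hamp and Hamp2. Hamp2 (7:31707520-31707579) stood at 7.22, 7.23 and 6.94 in sham livers and at -0.20, -0.73 and -0.41 after BDL, a fall of 7.58 (SE 0.18, limma, adjusted p = 1.53e-05). Hamp (7:31727490-31727549), the hormone's main source, stood at 7.77, 8.01 and 6.95 in sham livers and at 7.67, 6.85 and 6.74 after BDL. The change of Hamp was -0.49 (SE 0.35, limma, adjusted p = 0.316), its groups overlapped, and with slide as a block it was 0.10. The difference between the changes of the 2 genes was not tested. The 2 probes, each of 60 bases, align over 56 bases with 11 mismatches, so some cross-hybridisation between the copies is possible.

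The 250 bases upstream of both starts are shown because the copies are close relatives and Hamp2 fell while Hamp did not pass the test (RefSeq, GRCm38.p6, minus strand, 5′ to 3′). They are 89.7% identical over 253 aligned columns. Capitals mark, on either strand, the STAT site TTCNNNGAA and the BMP-responsive core GGCGCC, 2 elements through which inflammation and iron are known to act on Hamp. They were chosen after the values were seen.
Hamp, 7:30944030-30944279: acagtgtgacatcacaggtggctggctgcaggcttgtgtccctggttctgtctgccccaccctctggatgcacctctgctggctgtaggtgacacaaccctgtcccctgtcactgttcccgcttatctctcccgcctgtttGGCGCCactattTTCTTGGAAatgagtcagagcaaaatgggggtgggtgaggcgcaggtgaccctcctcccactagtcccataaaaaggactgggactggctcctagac
Hamp2, 7:30924182-30924431: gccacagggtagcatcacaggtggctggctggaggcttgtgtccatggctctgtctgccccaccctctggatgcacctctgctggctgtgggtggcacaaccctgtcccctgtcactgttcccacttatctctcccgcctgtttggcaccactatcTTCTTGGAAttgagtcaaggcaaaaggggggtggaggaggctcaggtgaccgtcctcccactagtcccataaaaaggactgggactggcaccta
Both windows hold the STAT letters, starting 97 bases upstream in Hamp and 94 in Hamp2, and the BMP letters are in the Hamp window alone, starting 109 bases upstream. Of 32851 windows of this length in the table, 7.02% hold the STAT letters and 9.59% the BMP letters. A match is a description of the sequence, not of a factor's binding, and no match says only that these letters are not in this window.

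Of the 23 iron genes tested, Hamp and Hamp2 among them, 5 fell and 3 rose, 34.8% in all, against 38% of all genes. Their median of -0.06 turned to 0.10 with slide as a block and to 0.01 with quantile normalization or the series matrix values. The count of falls was 2 with slide as a block, with no filter on dim probes and without sham replicate 1 or 2, and 3 with quantile normalization, with the series matrix and without sham replicate 3 or BDL replicate 1 or 2, and rises were 5 without BDL replicate 2. Aco1, an iron sensor that controls messenger RNAs of iron proteins, fell by 1.32. Tfrc, the transferrin receptor, rose by 1.37, a call lost with all 12 arrays in the model, and the phagosomal metal transporter Slc11a1 rose by 1.90. Macrophage markers rose with it (8 of 11), with a summed level of 5.50 to 6.09 in sham livers and 6.86 to 6.93 after BDL, and their part in it was not tested. Of 23 genes of heme synthesis, breakdown and bilirubin handling, 9 fell and 3 rose (6 with quantile normalization or the series matrix), with a median of -0.25. Alad, an early enzyme of heme synthesis, fell by 1.39, and the bilirubin and bile acid importer Slco1b2 by 1.85. Heme oxygenase 1, Hmox1, stood at 0.95, -0.91 and 1.34 in sham livers and at 3.36, 3.10 and 3.43 after BDL, a rise of 2.84 (SE 0.55, limma, adjusted p = 0.00797) that missed the threshold with slide as a block.

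Copper and zinc genes held 8 rises and 3 falls among 25, 44% in all, against 38% of all genes. Their median was 0.36, and 0.56 on the shared slide. The metallothioneins Mt1 and Mt2, which bind zinc and copper, did not pass. Mt1 stood at 8.02, 7.96 and 8.71 in sham livers and at 9.12, 8.49 and 8.10 after BDL, and its groups overlapped. Metalloreductases of the Steap family, which reduce iron and copper, did rise: Steap4 by 2.39 (SE 0.21, limma, adjusted p = 0.000437) and Steap2 by 2.20, and Steap1 was at least 5.07-fold higher. The copper importer Slc31a1 fell by 1.43, from between 3.90 and 4.03 on the sham arrays to 2.60, 2.51 and 2.55. Of 23 members with a promoter window, 13 (56.5%, counted by gene) hold the metal response element core, TGCACNC or TGCGCNC on either strand. Of all windows of 250 bases, counted singly, 21.4% hold it. Both Mt1 and Mt2 and both Steap1 and Steap2 are among the 13, and Steap4 and Slc31a1 are not. Whether the letters and the calls go together over the list was not tested.

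Antioxidant genes were mixed. Of 27 NRF2 targets and pentose phosphate genes, 9 rose and 4 fell, 48.1% in all, against 38% of all genes. Their median was 0.34, and rises were 5 with slide as a block. Gpx2 (12:77893402-77893461), a peroxidase of gut epithelium, stood at -4.17, -3.49 and -4.51 in sham livers and at 1.72, 2.74 and 1.34 after BDL. That is 63.5-fold higher (SE 0.41 on the log2 scale, limma, adjusted p = 0.0002). The carbonyl reductase Cbr3 rose by 2.13, and sulfiredoxin, Srxn1, by 1.58, a call lost with slide as a block. Gclc, the rate-limiting enzyme of glutathione synthesis, fell by 1.25 (SE 0.24, limma, adjusted p = 0.00785), from 4.14, 4.31 and 4.16 to 2.47, 3.43 and 2.95. The NADPH-making malic enzyme Me1 fell by 1.83, and Nqo1 stood at 0.73 without passing (limma, adjusted p = 0.0554). The antioxidant response element core TGACNNNGC was searched on both strands. Of the 26 members with a window, 8 hold it (30.8%, counted by gene), against 10.2% of all windows, counted singly. Gpx2, Cbr3, Srxn1 and Gclc are not among the 8.

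Glutathione S-transferases fell more often than they rose, 12 against 4 of 23 (median -0.70). Rises were 2 with slide as a block, 1 with all 12 arrays and 7 with quantile normalization or the series matrix. Gsto2 fell by 3.63, Gstt3 by 2.96 and Gstt1 by 1.97. Gstp1 rose by 1.78, a call lost with all 12 arrays in the model. Its near-identical neighbour Gstp2 rose by 1.23, with the same loss, so their separate values are uncertain. Among selenoproteins, 9 of 24 fell and 2 rose, 45.8% in all, against 38% of all genes. The count of falls was 4 with slide as a block or without sham replicate 1. It was 5 with no filter on dim probes or without sham replicate 3. Rises were 4 with quantile normalization or the series matrix. Gpx3 (11:54723436-54723495), the plasma peroxidase made mainly in kidney, was one that rose. It stood at -2.20, -2.51 and -2.32 in sham livers and at 1.46, 2.30 and 1.42 after BDL, a rise of 4.07 (SE 0.26, limma, adjusted p = 0.000142). Txnrd2, the mitochondrial thioredoxin reductase, fell by 1.44.

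**Figure D3:**
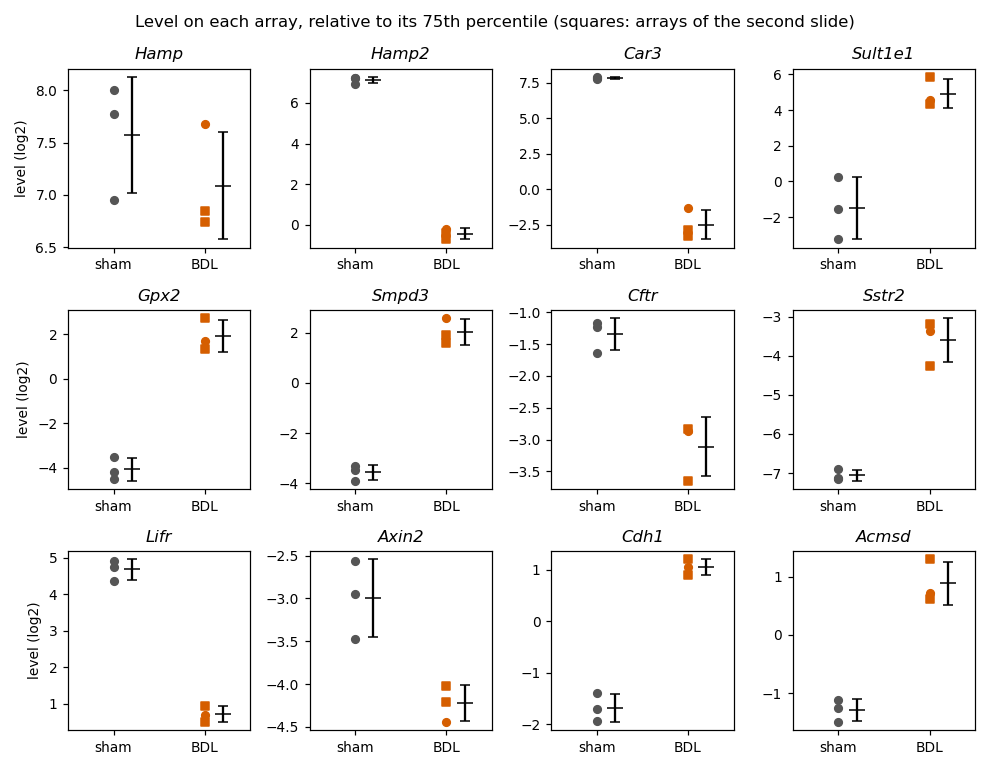
Levels (log2, relative to the 75th percentile of each array) of 12 genes in the 3 sham livers (grey) and 3 BDL livers (orange), each panel with its own axis; squares are the arrays on the second slide, and bars are the mean and SD of each group. Hamp overlaps between the groups and the other 11 genes do not; Sstr2 was not well above background on any sham array.

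Epithelial genes rose. Of 26 tested genes of epithelial adhesion and junctions, 14 rose and 2 fell (1 without any 1 array but BDL replicate 1), with a median of 0.80 and 0.84 on the shared slide. Some members passed the filter only through the BDL arrays: over the 22 well above background on all 6 arrays, 11 rose and the median was 0.59. Cdh1 (8:109193812-109193871), E-cadherin, stood at -1.70, -1.40 and -1.94 in sham livers and at 1.05, 0.90 and 1.20 after BDL. It rose by 2.73 (SE 0.18, limma, adjusted p = 0.000155). The desmosomal plakophilin Pkp1 rose by 3.17. The integrin Itgb6 was at least 2.61-fold higher and Epcam, an adhesion molecule of ducts and progenitor cells, at least 5.58-fold. N-cadherin, Cdh2, the classical cadherin that hepatocytes also carry, fell by 0.69, a call lost with slide as a block. Of 9 tested cholangiocyte markers 6 rose, Epcam among them, Cftr fell (2 fell without BDL replicate 3) and Krt23 stood at -1.41 without passing. Over the 7 well above background on all 6 arrays, 4 rose, 2 fell and the median was 1.73, against 3.10 over the 9. The markers' log2 summed signal was 1.90 to 2.15 in sham livers and 3.83 to 4.10 after BDL. Spp1, the brightest of them after BDL, stood at 3.12, 3.73 and 2.93 there. The part of duct cell number was not tested.

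The secretory genes of ducts passed the threshold about as often as all genes (42.1% against 38%). Of 19 tested genes of fluid and bicarbonate secretion, 3 rose and 5 fell, and their median, 0.14, turned below 0 with slide as a block, with median scaling and without BDL replicate 3. Cftr (6:18270974-18271033), the chloride channel of the duct membrane and one of the cholangiocyte markers, stood at -1.23, -1.17 and -1.64 in sham livers and at -2.86, -2.83 and -3.65 after BDL, a fall of 1.77 (SE 0.26, limma, adjusted p = 0.00259). Slc4a2, the chloride-bicarbonate exchanger that works beside it, fell by 1.10, a call lost with slide as a block. The secretin receptor Sctr, by which the gut hormone drives duct secretion, stood at 0.24 (limma, adjusted p = 0.404). Sstr2, the receptor of somatostatin, which inhibits that secretion, was at least 2.58-fold higher. The count of falls was 2 with slide as a block, 3 with all 12 arrays, with no filter on dim probes and without sham replicate 1, 2 or 3, and that of rises 1 with slide as a block and without sham replicate 2 or BDL replicate 2. In primary cilia, the sensory organelles of duct cells, 7 of 36 genes rose and 5 fell, 33.3% in all, against 38% of all genes. Their median, 0.05, turned below 0 with normexp, median scaling, quantile normalization and the series matrix values and without sham replicate 3 or BDL replicate 3, and rises were 4 with normexp. The falls were 2 with slide as a block, with no filter and without sham replicate 1, and 3 with the replicate block, with the mean of all probes and without sham replicate 2, sham replicate 3 or BDL replicate 2. Trpv4, a cation channel of cilia that senses osmolality, rose by 1.73, and Dync2li1, a dynein chain of ciliary transport, was at least 3.42-fold higher.

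Of 24 mucus-associated genes listed, 13 were tested, of which 6 rose and 1 fell. Some passed the filter only through the BDL arrays: over the 9 well above background on all 6 arrays, 3 rose and the median change was 1.11. Slpi, a secreted inhibitor of leukocyte proteases, rose by 4.15 (SE 0.45, limma, adjusted p = 0.000877), from -0.09, 0.61 and -0.09 to 3.49, 5.26 and 4.12. Spdef, a transcription factor of goblet cells, rose by 4.51. The antibacterial lectin Reg3b rose by 4.39, a call lost with slide as a block. The trefoil peptide Tff3 was at least 7.31-fold higher. Pigr, which carries immunoglobulin A into bile, fell by 1.85. Mesothelial markers also rose (4 of 6 tested, 2 with quantile normalization, the series matrix or no filter, and without any 1 of the sham arrays or BDL replicate 2 or 3, and 1 with slide as a block), from a summed level of -0.68 to -0.11 to 1.10 to 2.10. Muc16 is in both lists, and the part of surface mesothelium was not tested. Of 24 enzymes of O-glycan building, 6 rose and 0 fell, near the share of all genes that rose. The count was 2 with slide as a block, median scaling or no filter and without sham replicate 1 or 2, and 3 with the replicate block, all 12 arrays or normexp and without BDL replicate 2 or 3, and the median of 0.05 turned to -0.10 with median scaling and to -0.01 without BDL replicate 1, when 1 fell. Galnt6, which starts O-glycans, rose by 1.86.

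Of 37 cytoskeleton genes tested, 25 rose and 2 fell (median 1.17, and 0.84 on the shared slide). With slide as a block, 12 rose. Tagln2 (1:174437450-174437506), an actin-binding protein, stood at 2.05, 2.18 and 2.07 in sham livers and at 5.88, 5.99 and 5.77 after BDL, a rise of 3.78 (SE 0.12, limma, adjusted p = 2.27e-05). The tubulin Tuba8 rose by 4.28, and Tubb6 by 2.95 and the intermediate filament Vim by 1.96, both calls lost with slide as a block. Tpm1, a tropomyosin, fell by 1.29 at its brightest probe, but its 4 other measurable probes went up, and the mean of all 5 rose by 0.65. Stellate cell and myofibroblast markers had 3 rises among 10 (6 without BDL replicate 1), with a summed level of 5.37 to 5.55 in sham livers and of 4.86, 6.04 and 6.26 on the BDL arrays, and their part was not tested.

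Annexins, S100 proteins and galectins, which bind calcium or sugars, held 12 rises and 2 falls among 24 (median 0.67; 1 fall without sham replicate 1 or 2, 5 without BDL replicate 1). S100a11 rose by 4.11 (SE 0.30, limma, adjusted p = 0.000239), from -2.02, -1.80 and -1.53 to 2.47, 2.83 and 1.69, Anxa2 by 3.47 and Anxa3 by 3.15. Of 25 tetraspanins and relatives, membrane proteins that organise receptor patches and vesicles, 12 rose and 4 fell (2 with slide as a block; median 0.70, and 0.37 on the shared slide). Cd63 (10:128349813-128349872), of late endosomes and exosomes, stood at 0.70, 0.70 and 0.74 in sham livers and at 4.34, 4.22 and 4.50 after BDL, a rise of 3.64 (SE 0.12, limma, adjusted p = 2.28e-05). Tspan8 and Cd9 rose by 3.08 and 2.65.

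Immediate early genes, which cells switch on within minutes of a stimulus, were up at 2 weeks: 15 of 23 rose and 0 fell, with a median of 1.54 and 1.76 on the shared slide. Over the 18 well above background on all 6 arrays, 11 rose and the median was 1.32. The stress-induced Atf3 rose by 3.42 (SE 0.20, limma, adjusted p = 0.000122), from -3.35, -3.71 and -3.32 to -0.37, -0.01 and 0.25. Btg2 rose by 3.23 and Jun by 2.95, and Fos was at least 6.04-fold higher, its test lost with slide as a block. Of the YAP targets, read-outs of mechanical and Hippo signals, 6 of 19 rose and 2 fell, 42.1% in all, against 38% of all genes. Their median, 0.29, turned to -0.06 over genes well above background on all 6 arrays, to -0.08 without BDL replicate 3 and to just below 0 with the mean of all probes. Tgfb2 rose by 3.54 and the connective tissue growth factor Ccn2 by 2.52, and Ankrd1 was at least 6.99-fold higher. Ccn1, another standard target, stood at 0.29, and Nt5e, an ecto-nucleotidase, fell by 1.87, a call lost with all 12 arrays in the model.

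Of 17 fetal liver genes tested, 10 rose and 1 fell. Some, such as H19, passed the filter only through the BDL arrays: over the 13 well above background on all 6 arrays, 6 rose and the median was 1.22. Besides Spink1 and H19, Tspan8 and the fetal plasma protein Afp were among the rises. Afp (5:90937781-90937840) stood at -4.04, -4.34 and -3.88 in sham livers and at -1.36, -0.69 and -0.94 after BDL, a rise of 3.09 (SE 0.21, limma, adjusted p = 0.000198). Igf2, the fetal growth factor next to H19, was not bright enough to test. The imprinted cell cycle inhibitor Cdkn1c fell by 1.26, a call lost with slide as a block.

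Growth factor signalling split evenly, with 9 rises and 9 falls among 33 genes and a median of -0.15 that turned to 0.14 with slide as a block, 0.04 without sham replicate 1 and 0.12 without BDL replicate 2. The ligands Btc (betacellulin) and Hbegf of the EGF receptor rose by 2.66 and 1.84, and the receptor Egfr itself by 1.53, a call lost with all 12 arrays in the model. Lifr (15:7135072-7135131), the receptor subunit shared by leukemia inhibitory factor and related cytokines, stood at 4.91, 4.37 and 4.75 in sham livers and at 0.71, 0.95 and 0.52 after BDL. It fell by 3.95 (SE 0.19, limma, adjusted p = 8.25e-05). The feedback inhibitor Spry4 fell by 1.95, and Met, the receptor of hepatocyte growth factor, by 0.94, a call lost with slide as a block. Semaphorins, ephrins, netrins and their receptors held 11 rises and 9 falls among 36. The falls were 3 without sham replicate 1, 4 with no filter on dim probes and without sham replicate 2 or 3 and 5 without BDL replicate 2, and the median of 0.13 turned to -0.02 with median scaling. The semaphorins Sema5a and Sema3b rose by 2.16 and 2.06, and Sema3g was at least 2.96-fold higher.

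Of 25 genes of glycolysis and glucose entry, 10 rose and 2 fell, 48% in all, against 38% of all genes. Their median was 0.28, 1 fell without sham replicate 2 or 3, and 5 rose with slide as a block. Hexokinase 2, Hk2, rose by 2.01 (SE 0.27, limma, adjusted p = 0.00173), and the muscle-type pyruvate kinase Pkm by 1.96, a call lost with slide as a block. The hepatocyte glucose transporter Slc2a2 stood at 4.59, 4.81 and 4.79 in sham livers and at 2.21, 1.85 and 3.90 after BDL, a fall of 2.07 (SE 0.50, limma, adjusted p = 0.018) that was lost with slide as a block and without sham replicate 2 or 3. Amino acid transporters were divided, with 8 of 27 up and 7 down (4 with slide as a block and without any 1 of the sham arrays, 3 with no filter, 11 with median scaling). Slc43a2 and Slc7a1, carriers of large neutral and of cationic amino acids, rose by 1.99 and 1.57, and besides Slc1a2 the glutamine carrier Slc38a3 fell by 1.64. In polyamine and nucleotide synthesis, 8 of 34 rose and 8 fell, 47.1% in all, against 38% of all genes. The mitochondrial arginase Arg2 was at least 7.69-fold higher and CTP synthase, Ctps, rose by 2.86. The uridine phosphorylase Upp2 fell by 4.81 and thymidine kinase, Tk1, by 1.82.

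Several enzymes of ceramide and sphingosine metabolism rose. Smpd3 (8:108776790-108776849), a neutral sphingomyelinase that releases ceramide, stood at -3.90, -3.46 and -3.32 in sham livers and at 2.59, 1.93 and 1.60 after BDL. It rose 48.4-fold (5.60, SE 0.28, limma, adjusted p = 8.86e-05). Sphk1, which makes sphingosine 1-phosphate, rose by 3.20, Sptlc2, a subunit of the first enzyme of the pathway, by 1.93 and the ceramide kinase Cerk by 1.75 (named after its value was seen). In all, 10 of 28 rose and 4 fell, 50% of those tested, against 38% of all genes, with a median of 0.20. Falls were 1 with slide as a block. They were 2 with the replicate block, quantile normalization, the series matrix or no filter and without sham replicate 1. Of 26 prostaglandin and leukotriene genes, 9 rose and 5 fell (median 0.37). Alox5ap, which presents arachidonic acid to 5-lipoxygenase, rose by 2.52 (SE 0.20, limma, adjusted p = 0.000296), the lipoxygenase Alox5 was at least 2.61-fold higher and the phospholipase Pla2g7 rose by 2.24. Cyp4f14, which inactivates leukotriene B4, fell by 3.34 and Hpgd, which inactivates prostaglandins, by 1.79. The macrophage markers given above rose with these genes, and so did 4 of 9 neutrophil markers (2 with the replicate block and without sham replicate 1 or 2, 1 with slide as a block), with a summed level of 2.81 to 4.05 in sham livers and 4.56 to 6.26 after BDL. Over the 6 neutrophil markers well above background on all 6 arrays, 3 rose. The part of macrophages and neutrophils was not tested.

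Lysosomal genes, proteasome subunits and aminoacyl-tRNA synthetases had 35.6%, 28.9% and 36.8% of their tested genes called, against 38% of all genes. Of 45 lysosomal genes, 12 rose (7 with slide as a block or without sham replicate 2) and 4 fell (9 with median scaling, 10 without BDL replicate 1). Their median of 0.09 turned to -0.07 with median scaling and to -0.01 without BDL replicate 2. Cathepsin S, Ctss, of antigen-presenting cells, rose by 1.39 and Gusb by 1.52. Of 38 proteasome subunits, 9 fell and 2 rose. The falls were 17 with median scaling, 3 with quantile normalization, the series matrix or no filter, 4 with the replicate block and 5 with all 12 arrays. They were 3, 2 and 3 without sham replicates 1, 2 and 3, and 5 without BDL replicate 3. The immunoproteasome subunit Psmb9 fell by 1.26 (SE 0.12, limma, adjusted p = 0.000614). Heat shock proteins held 7 rises and 5 falls among 25, 48% in all, against 38% of all genes. Their median of 0.02 was below 0 under 9 alternatives. Rises were 3 with slide as a block and without sham replicate 1 or 2, and 4 without BDL replicate 2. Falls were 3 with all 12 arrays or no filter and without any 1 of the sham arrays. They were 2 with quantile normalization or the series matrix. Hspa2, an HSP70 relative, rose by 2.77 and the mitochondrial chaperonin Hspd1 fell by 0.86. Of 19 cytosolic aminoacyl-tRNA synthetases, 6 rose and 1, Dars, fell (2 rises with slide as a block, 3 with no filter and without sham replicate 3 or BDL replicate 2 or 3, and 0 falls then or without sham replicate 2, with slide or replicate as a block, or with no filter on dim probes; 3 falls with median scaling). Vars, for valine, rose by 1.71. Of 27 serpins, 9 rose and 5 fell (9 without BDL replicate 1). Besides the rise of Serpinb6b given above, Serpinb1a, an inhibitor of neutrophil proteases, fell by 2.54.

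**Figure D4:**
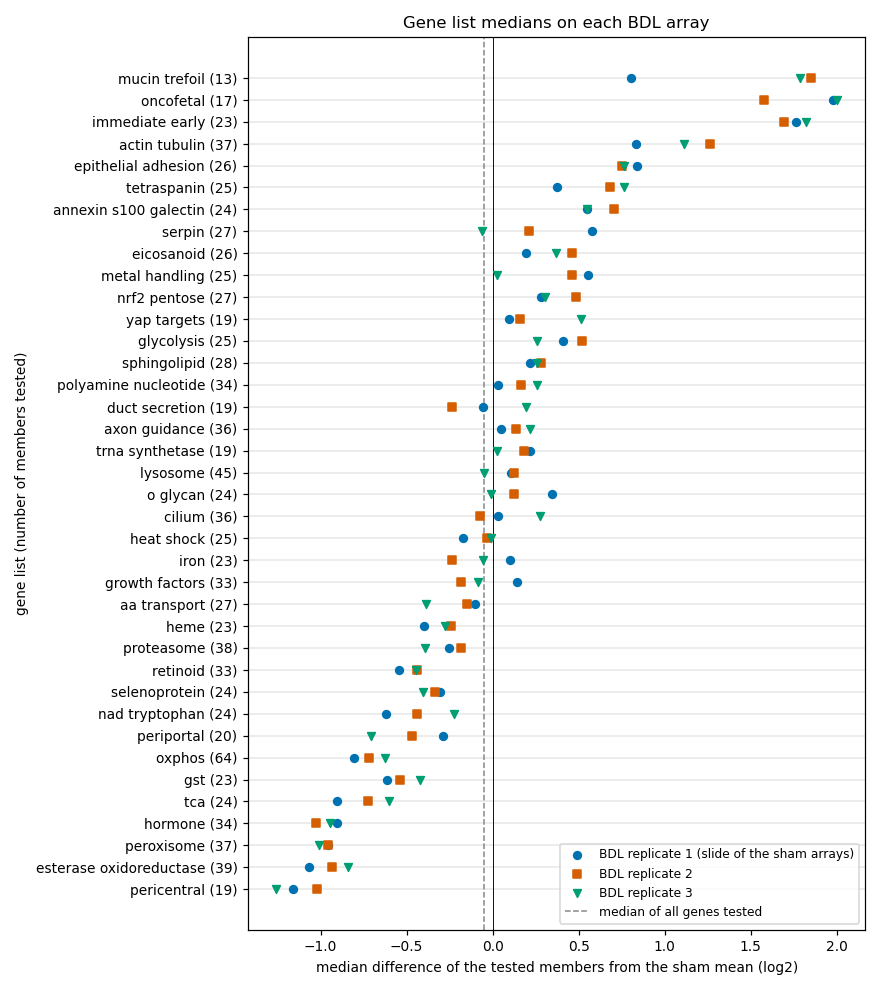
Median difference of the tested members of each gene list from the sham mean (log2), for each BDL array; the number of members tested is in brackets. Circles are BDL replicate 1, on the slide of the sham arrays, and the dashed line is the median change of all genes (-0.05); the medians on replicate 1 ran from -1.16 (pericentral) to 1.98 (oncofetal).

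The single BDL array on the slide of the sham arrays allowed the ligation to be read within 1 slide. Over the 3113 rises its median difference from the sham mean was 1.02, beside 1.09 and 1.06 on the BDL arrays of the second slide. Over the 3821 falls it was -0.89, beside -0.95 and -0.91. It lay above all sham arrays in 3111 of the rises and below them in 3818 of the falls. All of these genes were called with this array among the 3, so the counts describe the calls and are no separate test. A fit with slide as a block, which rests on this array for the ligation effect, could be made for 18252 genes and called 4942 (27.1%): 2208 rose (12.1%) and 2734 fell (15%). Of the 6934 genes called without the block, 4284 were called in the same direction with it. Without BDL replicate 1, 7121 genes were called; each slide then holds 1 group, so slide and ligation cannot be told apart.

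Replicate 1 did stand apart for a minority of genes. It differed by at least 2-fold from both other BDL arrays in 627 genes (3.43%), against 418 (2.29%) for replicate 2 and 368 (2.02%) for replicate 3. Examples are taken from the 12 genes with the largest gaps. Gsta1, a glutathione S-transferase, stood at 2.02, 1.96 and 2.54 in sham livers and at 1.56, 4.41 and 4.64 after BDL, so replicate 1 lay below the sham arrays and the other 2 above them. Mest, an imprinted fetal gene, did the same, at -3.81, -0.69 and -1.08 against -3.56 to -2.73 in sham livers. Acot11, an acyl-CoA thioesterase, stood at -0.17 on replicate 1, at -2.45 and -2.68 on the other BDL arrays and at -3.11 to -2.69 in sham livers. Cyp2a4, a steroid hydroxylase, fell from 8.73, 8.70 and 8.88 to 2.47, 4.67 and 6.22. Slide and differences between mice cannot be told apart for these genes. Some markers of other tissues were also raised on this array, and others of the same lists were not. The muscle gene Tnnt3 stood at -3.38 on it, against -7.10 to -6.52 in sham livers and -6.85 and -6.69 on the other BDL arrays. The pancreatic gene Cpa1 stood at -3.37, against -7.24 to -7.15 and -7.57 and -7.83. Ckm (-4.79) and Cpb1 (-4.90), which lay between -7.75 and -6.53 elsewhere, were not well above background on it. The pancreatic genes Prss1 (-6.29) and Amy2a5 (1.20) were not raised on it, against -6.39 to -5.66 and 1.68 to 2.26 in sham livers. The muscle markers' log2 summed signal was -2.53 on it, -4.82 to -4.15 in sham livers and -4.24 and -3.57 on the other BDL arrays. That of the pancreatic markers was 2.12 on it, 2.13 to 2.62 in sham livers and 1.68 and 2.54 on the other BDL arrays. The part of other tissues in the values of this array was not tested.

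**Figure D5:**
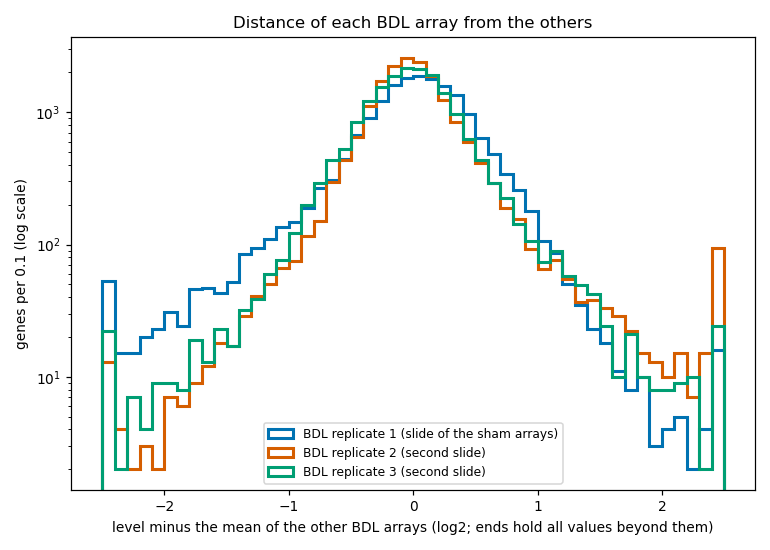
Number of genes (log scale) by the level of each BDL array minus the mean of the other BDL arrays (log2, bins of 0.1, end bins hold all values beyond them). Blue is replicate 1, on the slide of the sham arrays; its median distance was 0.27, against 0.20 for replicate 2 and 0.23 for replicate 3, and it has the most genes more than 1 below the others.

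Marker lists of other cells that a liver sample can hold gave these values beside the results. Of 10 endothelial markers 3 rose and 1 fell (3 with slide as a block, 2 without BDL replicate 1 or 3), and their summed level was 5.44 to 5.65 in sham livers and 5.33 to 5.40 after BDL. Of 7 tested T and NK cell markers 4 fell, and of 6 B and plasma cell markers 5 fell. Cd3g, Il2rb and the B cell marker Ms4a1 passed the filter only through the sham arrays. Over the 5 T and NK markers well above background on all 6 arrays, 2 fell and the median was -0.24. Without sham replicate 1, 2 or 3 the T and NK falls were 2 of 5 tested, as Cd3g and Il2rb then missed the filter. The B and plasma cell falls were 2 without sham replicate 1 or 3 and 3 with slide as a block or no filter. Of 5 tested erythroid markers, Klf1 alone fell, a call lost with slide as a block, and 2 rose without sham replicate 3. Of 10 pancreatic markers 5 were not well above background on any array and 4 were so on all 6. Of these 4, Ins2 alone passed, at 0.57, a call lost under 6 alternatives and without any 1 array but BDL replicate 3. Of 6 intestinal markers 5 were not well above background on any array, and the other, Fabp2, fell by 2.30. Of 5 muscle markers 3 were not well above background on any array and none could be tested. Adipose markers, of which Adipoq, Plin1, Cfd and Lep were not above background on any array, had a summed level of 0.32 to 0.53 in sham livers and 0.55, 2.50 and 2.15 on the BDL arrays. Fabp4, which capillary endothelium and macrophages also express, was the 1 adipose marker bright enough to test.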

How the data were processed

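Liver RNA of 6 wild-type mice, 3 per group, was hybridised to Agilent one-colour arrays with 60-base probes. The authors' deposited scanner files hold spot intensity, extracted with Agilent Feature Extraction 10.5.1.1 per the file headers. The deposited series matrix holds log2 values, whose normalization no label or header states (not given in the sources used here). It is used as an alternative: its columns correlate above 0.99 with the arrays' own processed intensity, each has a median of 5.66 or 5.65, and no gene centring was seen. Control spots and outlier spots were left out, processed intensity was put on the log2 scale and each array's 75th percentile was subtracted. Each gene is its brightest probe, and the 18257 genes that 3 or more of the 6 arrays measured well above background were tested with limma 3.58.1 in R 4.3.3 (lmFit, eBayes, Benjamini-Hochberg, two-sided, threshold 0.05). Python 3.11.15 and pandas 2.3.3 made the tables. The code was tested on simulated data.

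Nothing in the labels pairs the mice, and separate mice are the replicates. Probe positions are those of the array design (mm9); promoter windows are from RefSeq (GRCm38.p6). The members and gene lists were chosen with earlier results of these data known. Named genes are the 10 largest changes each way among genes measured on all 6 arrays, the 8 largest bounds each way, up to 3 rises, 3 falls and 2 preset members of each list, marker genes, and examples of the genes in which BDL replicate 1 stood apart; a few others are said to be named after their values were seen. Outlier spots left single arrays missing for a few genes, none of them named; a blocked fit that could not be estimated for a gene gives it no value. Alternatives were slide or replicate number as a block, all 12 arrays in the model, normexp background (offset 50), median scaling, quantile normalization, the series matrix, 2 other filters, the mean of all probes, trended and robust eBayes, and leaving out each array. Some genes are not reported here.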

Additional observations from a re-analysis of the deposited data

How the results depend on the processing

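The number of genes called (6934) stayed within 1.5 times under each alternative run. It was 4942 with slide as a block (18252 genes), 6236 with all 12 arrays in the model, 5925 with normexp, 7488 with median scaling (2412 rose and 5076 fell), 6969 with quantile normalization, 6968 with the series matrix, 5221 with no filter on dim probes (31685 genes), 6386 over genes above background on all 6 arrays, 6700 with the mean of all probes and 7199 with trended, robust eBayes. Leaving out 1 array gave 4880 to 7121. The median of BDL replicate 1 against the sham arrays of its slide was -0.14 with median scaling. Replicate numbers are shared between the groups, but the pairing was not borne out: deviations of same-numbered arrays correlated at -8e-04, -0.21 and 0.10. With the replicate block 5775 genes were called, 2674 up and 3101 down.

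Of 177 genes named as called, 149 kept the call under each alternative in which they were tested, 18 lost it with slide as a block and 4 with the replicate block. Values with the opposite sign were those of Tpm1 with the mean of all probes (0.65), of Hamp (0.10), Gsta1 (-0.62) and Mest (-0.73) with slide as a block, and of Cycs with quantile normalization (0.20), with the series matrix (0.20) and, over the fits without 1 array (-0.18 to 0.14), without BDL replicate 1. Beyond what the construction of each alternative shows, the cause was not tested. Counts within lists moved more than the total, as given beside each, and medians of 16 lists changed sign under some alternative. With 3 mice per group, the single BDL array on the sham slide limits the slide-blocked values, and probes near background give bounds only.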
